A study of Arabidopsis thaliana with 15 samples.

Results

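Glutathione transferases of the phi class (GSTF genes) and the tau class (GSTU genes) were described in leaves of Arabidopsis thaliana across 5 genotypes. Members were all genes of chromosomes 1 to 5 whose symbol in the deposited count table was GSTF or GSTU followed by a number, which gave 38 of 33024 genes, 11 of phi and 27 of tau class. Of these, 32 had at least 10 counts in at least 3 libraries, 9 of phi and 23 of tau class, and the values below are for those 32. GSTF14 and GSTU25 met this minimum only through topp4-1, with 1 and 2 libraries of at least 10 counts outside it. The other 6 were GSTF11, GSTF13, GSTU2, GSTU14, GSTU15 and GSTU22. GSTF11 had 0 counts in every library, and GSTF13 had 3, 5 and 4 counts in wild type, 1 count in a single topp4-1 library and 0 in the rest.

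The study compared leaves of wild type Col with 4 mutants, the single mutants pp1r3-2 and topp4-1, their double mutant pp1r3-2 topp4-1, and topp-7m, which the labels call a topp septuple mutant. Plants were grown under long-day greenhouse conditions to an age of 21 days, and each genotype had 3 poly-A selected RNA-seq libraries with 17962200 to 20756997 counts. TOPP genes encode catalytic subunits of protein phosphatase PP1, topp4-1 is an allele of TOPP4, and PP1R3 is named for a PP1 regulatory subunit. The labels state neither the lesion of any allele, nor the TOPP genes affected in topp-7m, nor whether replicate libraries stem from different plants. Each p-value here therefore reflects variation among 3 libraries per genotype that may be technical in origin. TOPP4 itself was at 30.8 ± 1.83 CPM (counts scaled to a common library size; SD, n = 3) in wild type, 36.8 ± 1.90 in topp4-1 and 5.44 ± 0.342 in topp-7m, so its transcript level does not check the topp4-1 label.

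Glutathione transferases join the tripeptide glutathione to reactive or foreign compounds, and the conjugates are carried into the vacuole by ABC transporters of the ABCC family. The phi and tau classes are the largest of the plant classes of the family, many tau genes lie in tandem arrays, and members are widely known as stress, hormone and herbicide-safener responsive genes. TGA-type bZIP factors, acting through the as-1 element, are among the known regulators of members such as GSTF8.

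Per unit of gene length, phi genes were the more abundant class in wild-type leaves. The summed level of the 9 phi genes was 4071 ± 229.9 CPM per kb (SD, n = 3) and that of the 23 tau genes was 1106 ± 198 CPM per kb. GSTF9 stood at 1256 ± 117 CPM per kb, and GSTF6, whose enzyme conjugates glutathione in camalexin synthesis, at 1063 ± 24.3 CPM per kb. GSTF10, also named ERD13 for its early response to dehydration, followed at 770.2 ± 125 and GSTF7 at 642 ± 12.9 CPM per kb. The spreads of GSTF10 and GSTF7 touched, so their order is not resolved. Among tau genes, GSTU19 led with 302 ± 41.3 CPM per kb, followed by GSTU20 with 233 ± 105 and GSTU5 with 168 ± 50.4 CPM per kb, and these neighbours overlapped within their spread. GSTU20 is known as a partner of the jasmonate-conjugating enzyme FIN219/JAR1.

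The summed CPM of the phi genes was lower in every mutant group than in wild type. It was 4939 to 5463 CPM in the wild-type libraries and 3724 to 4334 in those of topp4-1. The pp1r3-2 libraries held 3964 to 4300.3 CPM, the topp-7m libraries 4005 to 4820 CPM and the double-mutant libraries 4012 to 4079 CPM. No mutant library reached the lowest wild-type library. The tau sum was 1285 ± 235 CPM (SD, n = 3) in wild type, 1003 ± 72.6 in pp1r3-2, 1044 ± 27.5 in topp4-1, 1107 ± 83.1 in topp-7m and 1027 ± 116 in the double mutant. Its wild-type libraries, at 1084 to 1544 CPM, overlapped those of topp-7m and of the double mutant and lay above those of pp1r3-2 and topp4-1. No test was run on these sums. Most of the phi sum came from GSTF6, GSTF7, GSTF8, GSTF9 and GSTF10. In these whole leaves, fewer cells of a type and less RNA per cell cannot be told apart.

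**Figure D1:**
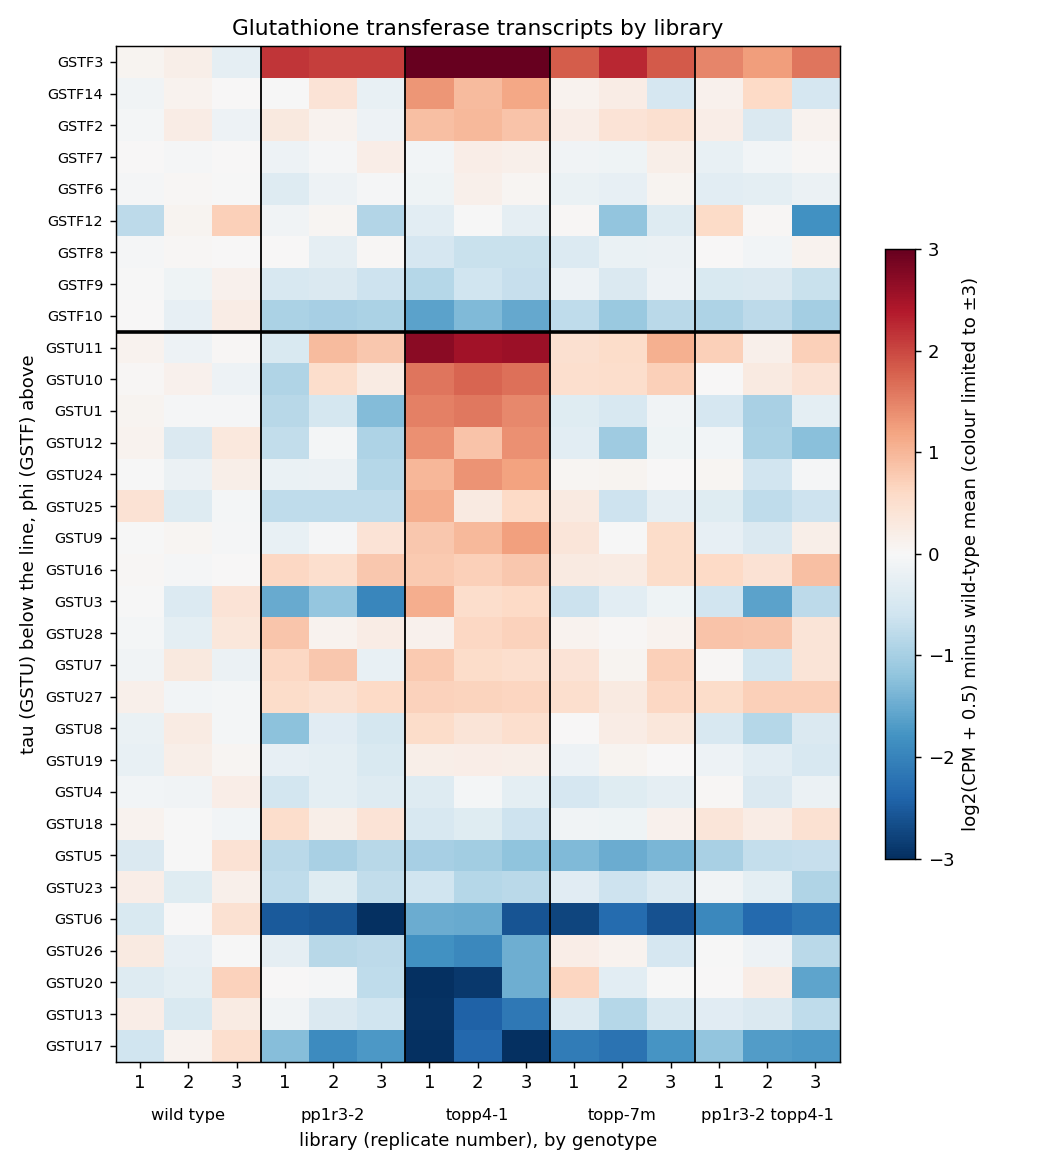
Level of each of the 32 glutathione transferase genes in each of the 15 libraries, as log2(CPM + 0.5) minus the wild-type mean, with colours limited at 3 either way. Genes are grouped by class, phi above tau, and ordered by their change in topp4-1. This order places the largest topp4-1 changes at the ends of each class. The lowest gene of each class, GSTF10 and GSTU17, fell in every mutant and is not particular to topp4-1. GSTU13, GSTU20 and GSTU26, next lowest of the tau class, were called against wild type in topp4-1 only. GSTF3 is the top phi gene, at 49.3 to 51.6 CPM in topp4-1.

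A set of 6 members moved in the same direction in all 4 mutants against wild type, as called by the quasi-likelihood test of edgeR, with p-values adjusted by the Benjamini-Hochberg method over 20037 genes and a threshold of 0.05. GSTF3 and GSTU27 rose, and GSTF10, GSTU5, GSTU6 and GSTU17 fell. The 4 comparisons share the wild-type libraries and are not independent of one another. How many of all genes were called the same way in all 4, or in none, was not counted. The numbers of members of these kinds therefore have no background beside them. In all, 5 members (GSTF6, GSTF7, GSTF12, GSTU7 and GSTU28) were called in none of the 4, and GSTF12, also known as TT19, is the transferase needed to carry anthocyanins to the vacuole.

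GSTF3 had the largest fitted rise of the 32 members in each of the 4 mutants. Its level was 4.45, 4.75 and 3.35 CPM in wild type, 20.0, 19.1 and 18.9 in pp1r3-2, and 49.3, 51.6 and 50.2 in topp4-1. It was 15.8, 21.7 and 16.1 CPM in topp-7m and 12.2, 10.6 and 13.7 in the double mutant. All 12 mutant libraries were above all wild-type libraries, with topp4-1 highest and the double mutant lowest of the mutants. The log2 fold changes were 2.21 ± 0.15 (SE) in pp1r3-2 (adjusted p = 2.36e-07), 3.59 ± 0.15 in topp4-1 (3.5e-10, a 12.0-fold rise), 2.09 ± 0.15 in topp-7m (4.98e-07) and 1.54 ± 0.15 in the double mutant (1.42e-05). GSTF2 is the closest relative of GSTF3, with 94.5% identical coding bases and a longest identical run of 74 bases, so reads can be shared between them. GSTF2 was at 127, 154 and 120 CPM in wild type and 249, 262 and 242 CPM in topp4-1, a log2 rise of 0.91 ± 0.16 (adjusted p = 0.00016), and was not called in the other 3 mutants. The GSTF2 gene also overlaps TOC159 on the opposite strand, and TOC159 was not called in topp4-1 (log2 0.20 ± 0.12, adjusted p = 0.155). The first 120 coding bases of both are shown because they illustrate how few bases tell these genes apart. They are from RefSeq's TAIR10.1 assembly, read 5′ to 3′, and the capitals mark the positions where they differ.
GSTF2: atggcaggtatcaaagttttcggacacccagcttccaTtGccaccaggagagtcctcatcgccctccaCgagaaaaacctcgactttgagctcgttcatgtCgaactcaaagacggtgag
GSTF3: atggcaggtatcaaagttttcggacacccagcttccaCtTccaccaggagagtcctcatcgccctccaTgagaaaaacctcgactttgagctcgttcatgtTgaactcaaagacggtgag

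The 4 genes that fell in every mutant included the abundant phi gene GSTF10. It was at 873, 730 and 1013 CPM in wild type, 444, 435 and 449 in pp1r3-2, and 284, 342 and 299.7 in topp4-1. In topp-7m it was at 512, 402 and 493 CPM and in the double mutant at 457, 501 and 428 CPM. Every mutant library was below every wild-type library, and topp4-1 was lowest. The log2 changes were -0.98 ± 0.13 in pp1r3-2 (adjusted p = 0.000112), -1.50 ± 0.13 in topp4-1 (2.46e-07), -0.89 ± 0.13 in topp-7m (0.000369) and -0.92 ± 0.13 in the double mutant (0.000281). Its tandem neighbour GSTF9 was at 1529, 1416 and 1703 CPM in wild type and fell in pp1r3-2 (log2 -0.52 ± 0.12, adjusted p = 0.00674), topp4-1 (-0.71) and the double mutant (-0.53 ± 0.12, 0.00849), the last with adjusted p = 0.0571 when only the 2 compared genotypes were fitted.

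GSTU17, a phytochrome A-regulated gene known to affect glutathione and abscisic acid levels, was at 36.7, 59.6 and 78.6 CPM in wild type. It was at 22.6, 14.6 and 16.6 CPM in pp1r3-2, 5.85, 10.5 and 5.67 in topp4-1, 12.5, 11.7 and 15.9 in topp-7m and 24.3, 17.1 and 16.4 in the double mutant. The wild-type libraries differed among themselves more than most mutant groups did, yet none overlapped a mutant library. The log2 changes were -1.70 ± 0.29 in pp1r3-2 (adjusted p = 0.00136), -2.99 ± 0.31 in topp4-1 (4.17e-06), -2.12 ± 0.30 in topp-7m (0.000572) and -1.60 ± 0.29 in the double mutant (0.00293). GSTU6 fell from 4.50, 6.40 and 8.93 CPM in wild type to 0.318 to 0.708 CPM in pp1r3-2 and 0.640 to 1.93 in topp4-1. Libraries of topp-7m lay at 0.520 to 0.889 CPM and those of the double mutant at 0.876 to 1.31 CPM. Its log2 changes were -3.53 ± 0.43 (adjusted p = 5.75e-05), -2.15 ± 0.38 (0.00022), -3.28 ± 0.42 (0.00014) and -2.63 ± 0.40 (0.000535) in the order used for GSTU17. GSTU5, a neighbour of GSTU6, was at 153, 206 and 280.4 CPM in wild type and at 73.7 to 127 CPM over all mutant libraries, with log2 changes of -0.92, -1.13, -1.43 and -0.84 in the same order. In the double mutant its adjusted p was 0.00282, and 0.0501 when only the 2 compared genotypes were fitted. GSTU27, by contrast, rose by a small amount, from 37.6 to 43.6 CPM in wild type to 48.0 to 65.7 CPM over the mutant libraries, with log2 changes of 0.54 ± 0.09 (adjusted p = 0.001), 0.67, 0.48 ± 0.09 (0.00376) and 0.67 (0.000293).

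**Figure D2:**
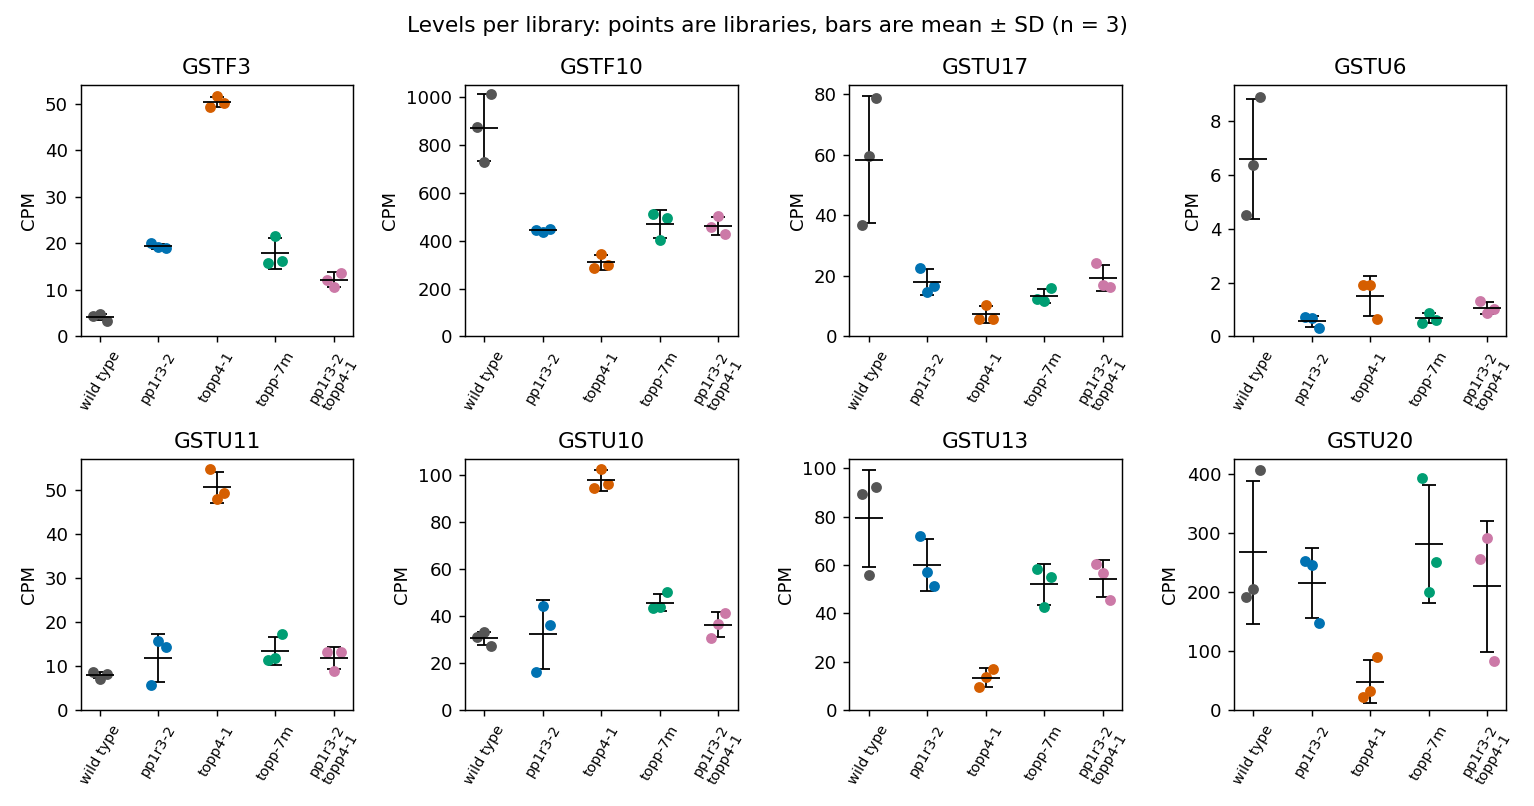
Level in CPM of 8 glutathione transferase genes in each library of the 5 genotypes, with points for libraries and the mean ± SD (n = 3) for each genotype. GSTF3 is lowest and GSTF10 and GSTU17 are highest in wild type, while GSTU11 and GSTU10 are highest and GSTU13 lowest in the topp4-1 libraries. A topp4-1 library at 90.5 CPM and a double-mutant library at 83.7 CPM of GSTU20 overlap.

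The topp4-1 mutant had the most members called, 24 of 32 (75.0%) against 53.5% of all 20037 genes tested. Of these, 13 rose and 11 fell, where 27.0% and 26.5% of all genes did. By class, phi genes had 3 higher, 3 lower and 3 not called with a median log2 change of 0.03, and tau genes had 10 higher, 8 lower and 5 not called with a median of 0.67, while the median over all genes was 0.01. Changes of at least 2-fold were called for 8 members upward and 8 downward, where 7.85% and 11.2% of all genes (19.1% together) had such calls. The libraries of the 2 genotypes did not overlap for 25 members, against 64.5% of all genes. GSTF14, past the count minimum only through topp4-1, is among the 13 higher, the 8 with a 2-fold rise and these 25. Its place in these counts follows in part from that minimum. In topp4-1 all 5 leaf marker genes fell (median log2 -0.91), their summed level being 18113 to 20733 CPM against 29685 to 38205 in wild type. The flower gene PI was at 4.02 to 6.45 CPM in topp4-1 against 0.155 to 0.372 in wild type (log2 4.48). It was also called higher in pp1r3-2 (log2 2.54) and the double mutant (2.46), and was not called in topp-7m (1.82). Among the other flower and meristem markers, AP3, AG, SEP3 and LFY had mean levels of 0.142 to 0.471 CPM in topp4-1 and 0.157 to 0.30 CPM in wild type and too few counts for a test. The part of these shifts in the changes of the transferase genes was not tested. Root markers were at 0.101 to 1.65 CPM in sum over all libraries, and PLT1, PLT2 and RHD6 were at 0 counts in all of them.

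The largest tau rise in topp4-1 was in GSTU11, at 8.63, 7.17 and 8.18 CPM in wild type and 54.7, 47.9 and 49.3 CPM in topp4-1. The groups lay far apart, and the 3 other mutants were at 5.72 to 17.2 CPM. The log2 rise was 2.66 ± 0.29 (adjusted p = 5.51e-06), a 6.33-fold change. GSTU10 rose from 31.0, 33.0 and 27.3 CPM to 94.2, 102 and 96.1 CPM (log2 1.68 ± 0.25, adjusted p = 0.000101). GSTU10 overlaps an unnamed gene on the opposite strand over 279 bases, and that gene had at most 125 counts in any library and fell in topp4-1 (log2 -0.996 ± 0.22, adjusted p = 0.00126). It also overlaps PCMP-E69 on its own strand over 21 bases, and that gene had at most 105 counts and rose in topp4-1 (log2 0.55 ± 0.22, adjusted p = 0.0472). GSTU1 rose from 5.16 to 5.68 CPM to 15.3 to 16.9 CPM (log2 1.59 ± 0.21, adjusted p = 1.39e-05). GSTU24, whose enzyme is known to conjugate the explosive TNT, rose by 1.24 ± 0.19 (adjusted p = 7.35e-05) and GSTU9 by 1.05 ± 0.20 (0.000388) on the log2 scale. Low-count members had wider errors. GSTF14 had 3, 5 and 4 counts in wild type and 25, 17 and 24 in topp4-1 (log2 2.32 ± 0.76, adjusted p = 0.0168), but since only topp4-1 brought it past the count minimum, its being high there follows in part from that choice. GSTU12 rose by 1.45 ± 0.47 (0.0157). Omitting wild-type replicate 1 (adjusted p = 0.0567) or topp4-1 replicate 1 (0.0519) ended the GSTF14 call, and omitting wild-type replicate 2 (0.0719), topp4-1 replicate 1 (0.0538) or topp4-1 replicate 3 (0.052) ended that of GSTU12. GSTU8 was called higher as well, and that call ended on omitting any 1 of 5 libraries (adjusted p up to 0.167, without wild-type replicate 1).

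The members that fell in topp4-1 included a gene of pathogen defence. GSTU13, an enzyme of the indole glucosinolate-based pathogen defence pathway, was at 89.4, 56.1 and 92.4 CPM in wild type and 9.41, 13.9 and 17.1 CPM in topp4-1. Its other mutant libraries, at 42.5 to 72.1 CPM, overlapped wild type. The log2 change was -2.56 ± 0.24 (adjusted p = 1.18e-06). GSTU20 was at 191, 205 and 407 CPM in wild type and at 22.3, 33.3 and 90.5 CPM in topp4-1 (log2 -2.46 ± 0.60, adjusted p = 0.00476). A single library set the size of this fall, since without topp4-1 replicate 3 the log2 change was -3.28. GSTU26 fell from 3.41 to 5.09 CPM to 0.722 to 1.19 CPM (log2 -2.20 ± 0.33, adjusted p = 4.98e-05). GSTF8, an early stress marker gene, was at 551, 572 and 562 CPM in wild type and 398, 355 and 352 CPM in topp4-1, a log2 change of -0.61. Members called lower in topp4-1 beside these were GSTU6, GSTU17, GSTF10, GSTU5 and GSTF9, described above, and GSTU23 and GSTU18. GSTU23 was no longer called when wild-type replicate 1 (adjusted p = 0.0542) or 3 (0.0505) or topp4-1 replicate 2 (0.059) or 3 (0.0555) was omitted.

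**Figure D3:**
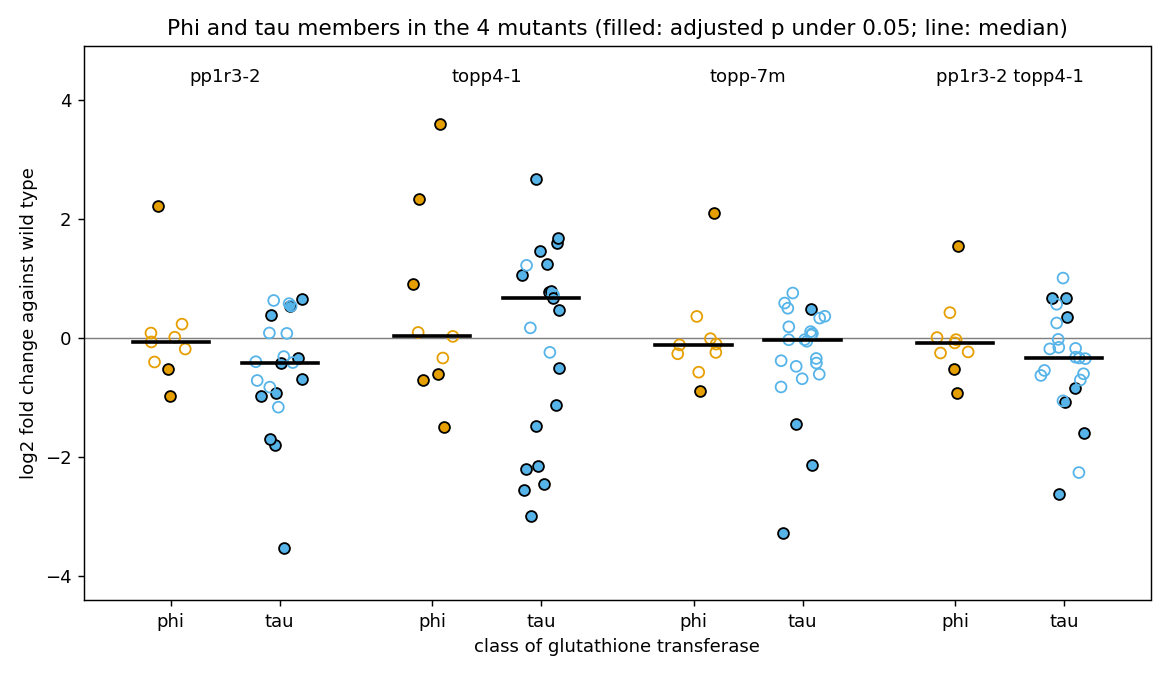
Log2 fold change against wild type of each phi (orange) and tau (blue) gene in the 4 mutants, filled where the adjusted p was under 0.05, with a line at the class median; GSTU25 in pp1r3-2, at 0 counts there, is not drawn. The tau points spread widely in topp4-1 around a median of 0.67, and GSTF3 is the top phi point in each mutant.

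In pp1r3-2, 15 of 32 members (46.9%) were called, against 19.3% of all genes. More fell than rose: 11 were lower and 4 higher, where 8.33% and 10.9% of all genes were. Phi genes had 1 higher and 2 lower of 9 with a median log2 change of -0.07, and tau genes 3 higher and 9 lower of 23 with a median of -0.41, beside a median over all genes of 0.00. Groups were apart for 17 members, against 34.0% of all genes. GSTU3 was at 6.11, 4.49 and 8.40 CPM in wild type and 1.82, 2.45 and 1.22 CPM in pp1r3-2 (log2 -1.79 ± 0.33, adjusted p = 0.0016), and GSTU1 fell by 0.97 ± 0.23 (0.007) on the log2 scale. Both genes thus moved against their direction in topp4-1, where GSTU3 rose by 0.76 ± 0.30 (adjusted p = 0.0406), a call that ended on omitting wild-type replicate 1 (0.101) or 2 (0.161) or topp4-1 replicate 1 (0.192) or 3 (0.0589). GSTU16 rose from 23.8 to 25.1 CPM to 35.0 to 43.7 CPM (log2 0.66 ± 0.12, adjusted p = 0.00136). GSTU18 rose by 0.39 ± 0.11 (0.0181), a call that ended on omitting wild-type replicate 2 (adjusted p = 0.06) or 3 (0.081) or pp1r3-2 replicate 1 (0.0803) or 3 (0.0566). The lower calls of GSTU4, GSTU8 and GSTU19 were also lost without single libraries, with adjusted p up to 0.125 (wild-type replicate 3), 0.103 (wild-type replicate 2) and 0.209 (wild-type replicate 2). GSTU25 had 12, 3 and 6 counts in wild type and 0 in all 3 pp1r3-2 libraries, at least 6.96-fold lower with 3 counts over the group as the floor. The bound was 4.44-fold without wild-type replicate 1, and it was no longer called on omitting wild-type replicate 1 (adjusted p = 0.055) or pp1r3-2 replicate 3 (0.0551).

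Called members in topp-7m numbered 6 (18.8%, against 11.6% of all genes), with 2 higher and 4 lower, where 6.18% and 5.46% of all genes were, and they were the same 6 that moved in every mutant. Phi medians were at -0.12 and tau medians at -0.03 on the log2 scale, and 13 members had groups apart, against 28.3% of all genes. In the double mutant 10 members (31.2%) were called against 13.1% of all genes, 4 higher and 6 lower (7.66% and 5.47% of all genes), with class medians of -0.08 for phi and -0.33 for tau. Groups were apart for 15 members, against 30.0% of all genes. Beside the 6 shared genes, GSTU16 (log2 0.68) and GSTU18 (0.34, adjusted p = 0.042) were higher and GSTF9 and GSTU3 (-1.08 ± 0.32, adjusted p = 0.0352) lower. The calls of GSTU18 and GSTU3 were lost without single libraries: GSTU18 without wild-type replicate 2 (adjusted p = 0.119) or 3 (0.171) or double-mutant replicate 1 (0.0756) or 3 (0.151), and GSTU3 without wild-type replicate 1 (0.0505) or 3 (0.161) or double-mutant replicate 2 (0.121) or 3 (0.0709).

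Adding pp1r3-2 to topp4-1 moved many members. Against topp4-1, the double mutant had 7 members higher and 13 lower, 20 of 32 (62.5%). Of all genes, 43.3% were called (21.4% higher and 21.9% lower). Groups were apart for 22 members, against 54.4% of all genes. The 13 and the 22 include GSTF14 and GSTU25, which met the count minimum only through topp4-1. Their being lower elsewhere follows in part from that choice. GSTF3 fell by 2.05 ± 0.14 (adjusted p = 4.2e-08), GSTU1 by 2.22 ± 0.22 (1.2e-06) and GSTU11 by 2.10 ± 0.28 (4.67e-05) on the log2 scale. GSTU13 rose by 2.01 ± 0.24 (1.28e-05), GSTU17 by 1.40 ± 0.31 (0.0025) and GSTU20 by 2.11 ± 0.59 (0.0134). GSTU26 rose by 1.86 and GSTU12 fell by 2.51 (by 3.32 without double-mutant replicate 1). GSTU25, another member past the minimum only through topp4-1, had 26, 10 and 17 counts there and 3, 0 and 1 in the double mutant. The GSTU20 rise was 2.94 without topp4-1 replicate 3, and its call was lost without topp4-1 replicate 2 (adjusted p = 0.0542) and when only the 2 compared genotypes were fitted (0.0831). Against pp1r3-2, the double mutant had 0 of 32 members called by edgeR, where 0.0349% of all genes (7 genes) were. At an unadjusted p under 0.05 there was 1 of 32 members, GSTF3, against 6.87% of all genes, so this count is not above the background. By edgeR, GSTF3 was at -0.67 ± 0.14 on the log2 scale (adjusted p = 0.117), and DESeq2 called it (-0.66 ± 0.15, adjusted p = 0.00472). Same-numbered libraries of these 2 genotypes deviated together. GSTF3 was lower in the double mutant within all 3 pairs, but its groups did not overlap, so this would hold under any pairing. With the replicate number as a block and these 2 genotypes alone in the fit, an alternative chosen after the data were seen, edgeR called GSTF3 (-0.68 ± 0.12, adjusted p = 0.0342) as the single member called, and 10 genes higher and 93 lower over all genes. With the block and all 15 libraries its adjusted p was 0.151, and with these 2 genotypes and no block 0.555. The pairing was taken from these same data, so the blocked call of GSTF3 lends no support. Groups were apart for 2 members, GSTF3 and GSTU6, against 10.6% of all genes. Other members ranged from -0.56 ± 0.34 for GSTU7 to 0.91 ± 0.46 for GSTU6 apart from GSTU25, which had 0 counts in pp1r3-2 and 3, 0 and 1 in the double mutant, so equality of the 2 genotypes is not shown for each gene.

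The effect of topp4-1 differed with the PP1R3 genotype. The interaction term, defined as how far the topp4-1 effect in the pp1r3-2 background exceeds that in the wild-type background, was called for 22 of 32 members (68.8%) against 38.3% of all genes, with 12 above and 10 below 0, where 19.0% and 19.3% of all genes were. It was -4.26 ± 0.20 for GSTF3 (adjusted p = 6.01e-09), -2.67 for GSTU11, 1.56 for GSTF10 (1.07e-05), 2.41 for GSTU13 and 3.09 for GSTU17. The term contains the changes of topp4-1 and of pp1r3-2 against wild type, both with reversed sign, so it is not independent of them.

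Members also separated topp-7m from topp4-1, with 8 higher and 11 lower of 32 (59.4%) against 37.8% of all genes (19.3% higher and 18.5% lower) and 24 groups apart against 53.8%. GSTU11 was lower in topp-7m by a log2 of -1.91, GSTU1 by -1.93 and GSTF3 by -1.50 ± 0.13, and GSTU13 was higher by 1.95. GSTU20 was higher by 2.53, or 3.36 without topp4-1 replicate 3. GSTU26 was higher by 2.14 and GSTU12 lower by a log2 of -2.14. GSTF14, brought past the count minimum by topp4-1 alone, had 25, 17 and 24 counts there and 5, 6 and 0 in topp-7m, with no support drawn from its call. It is among the 11 lower and the 24 with groups apart. GSTU17 was higher by 0.87 (adjusted p = 0.0415), which was above 0.05 without any 1 of 5 libraries (0.13 without topp4-1 replicate 3) and at 0.067 with a looser count filter. GSTF3 and the 5 other shared genes moved the same way in both mutants against wild type, while GSTU11, GSTU1 and GSTU13 were called in topp4-1 and not in topp-7m.

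Neither class moved as a block, since each had members called higher and lower in every mutant. The phi median minus the tau median on the log2 scale was 0.35 in pp1r3-2, -0.64 in topp4-1, -0.09 in topp-7m and 0.25 in the double mutant. With each library left out in turn it ranged from 0.17 to 0.45, from -0.69 to -0.46, from -0.27 to 0.020 and from 0.18 to 0.36, so the sign in topp-7m depended on single libraries. These are descriptions, with no test between the classes.

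Genes side by side in the genome did not always move together. Of the 38 members, 26 lay in 10 clusters with gaps of under 10000 bases. The largest is on the minus strand of chromosome 2 from 12617936 to 12632538 in TAIR10.1 and holds GSTU7, GSTU6, GSTU5, GSTU4, GSTU3, GSTU2 and GSTU1. In topp4-1, GSTU1 and GSTU3 rose, GSTU5 and GSTU6 fell, and GSTU4 and GSTU7 were not called. In the other mutants the calls of this cluster went one way, with 0 of its 6 described genes higher. Lower were 5 in pp1r3-2, 3 in the double mutant and 2 in topp-7m, where 8.33%, 5.47% and 5.46% of all genes were. GSTU18 and GSTU17, on chromosome 1 from 3395551 to 3398358, overlap by 71 bases on the same strand, with 81.6% identical coding bases, and split in pp1r3-2, where GSTU17 fell and GSTU18 rose. GSTU24 rose and GSTU26 fell in topp4-1, with GSTU25 between them on chromosome 1 from 5869543 to 5876620. GSTU11 and GSTU12, on chromosome 1 from 26334250 to 26338818, both rose, and GSTF9 and GSTF10, on chromosome 2 from 13138882 to 13142676, both fell in topp4-1. Close relatives share identical stretches. GSTF6 and GSTF7 are 94.7% identical over their coding sequences with a longest identical run of 116 bases, so their separate levels are less certain. GSTU5 and GSTU6 are 83.5% identical with a longest run of 25 bases. How many reads such pairs share was not checked. The counting strand is not given in the sources used here, so reads of overlapping partners cannot be told apart.

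**Figure D4:**
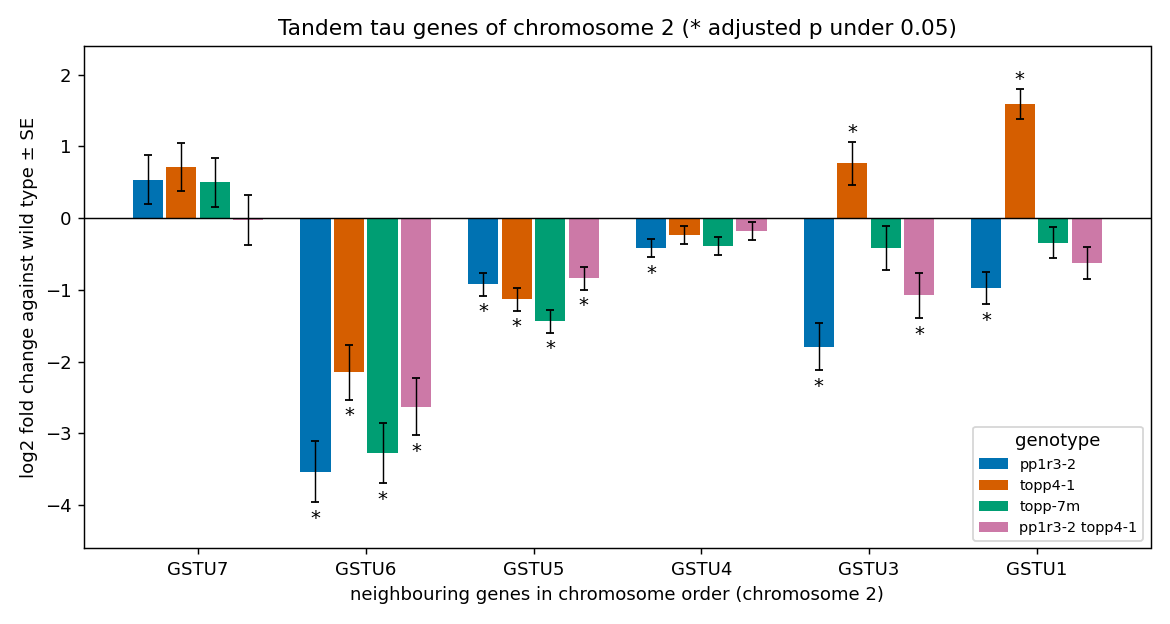
Log2 fold change against wild type, with SE, of the 6 described genes of the chromosome 2 tau cluster, in their order along the chromosome, in the 4 mutants; a star marks an adjusted p under 0.05. GSTU6 and GSTU5 are below 0 in every mutant, while GSTU3 and GSTU1 are above 0 in topp4-1 and below 0 in pp1r3-2.

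The 250 bases before the annotated start of each member were searched on both strands for 3 motifs, TGACG (the core of the as-1 element), CACGTG (the G-box) and TTGACC (a form of the W-box; the form ending in T was not searched). TGACG was in 13 of 32 members (40.6%), against 18.6% of 27443 protein-coding genes. It was in 7 of 13 members that rose in topp4-1, 4 of 11 that fell and 2 of 8 not called. GSTF14, past the count minimum only through topp4-1, is among the 13 and has no match. GSTU25, the other such member, is among the 8 and has a match. CACGTG was in 3 of 32 members against 6.5% of all genes, and TTGACC in 8 of 32 against 12.2%, the TTGACC and TGACG matches of GSTU11 sharing a base. These promoter stretches are from RefSeq's TAIR10.1 genome, read 5′ to 3′ towards the gene, and show where TGACG or its reverse complement CGTCA, in capitals, falls in 4 members that rose in topp4-1 and in GSTF8, which fell. GSTF3 lies at chr2:852322-852571 on the minus strand, GSTU1 at chr2:12632539-12632788 on the minus strand, GSTU9 at chr5:25089627-25089876 on the minus strand, GSTU11 at chr1:26338819-26339068 on the minus strand and GSTF8 at chr2:19556076-19556325 on the plus strand.
GSTF3: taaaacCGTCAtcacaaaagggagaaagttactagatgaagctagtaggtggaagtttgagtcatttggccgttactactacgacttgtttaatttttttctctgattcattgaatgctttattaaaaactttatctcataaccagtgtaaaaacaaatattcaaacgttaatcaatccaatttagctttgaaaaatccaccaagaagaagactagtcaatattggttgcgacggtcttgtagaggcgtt
GSTU1: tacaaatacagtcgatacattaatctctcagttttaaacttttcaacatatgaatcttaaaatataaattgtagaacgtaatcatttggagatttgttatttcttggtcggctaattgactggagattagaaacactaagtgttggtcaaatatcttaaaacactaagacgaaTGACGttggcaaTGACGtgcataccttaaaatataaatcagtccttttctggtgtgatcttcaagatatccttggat
GSTU9: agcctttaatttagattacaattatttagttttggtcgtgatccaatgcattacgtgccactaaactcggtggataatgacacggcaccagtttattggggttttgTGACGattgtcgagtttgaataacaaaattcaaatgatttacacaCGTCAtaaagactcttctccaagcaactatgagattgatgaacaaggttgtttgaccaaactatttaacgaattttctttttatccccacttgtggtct
GSTU11: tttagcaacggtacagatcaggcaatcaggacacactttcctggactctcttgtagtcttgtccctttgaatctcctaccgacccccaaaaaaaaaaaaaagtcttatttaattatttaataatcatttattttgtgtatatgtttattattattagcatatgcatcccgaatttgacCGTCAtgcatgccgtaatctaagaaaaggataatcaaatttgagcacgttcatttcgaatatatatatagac
GSTF8: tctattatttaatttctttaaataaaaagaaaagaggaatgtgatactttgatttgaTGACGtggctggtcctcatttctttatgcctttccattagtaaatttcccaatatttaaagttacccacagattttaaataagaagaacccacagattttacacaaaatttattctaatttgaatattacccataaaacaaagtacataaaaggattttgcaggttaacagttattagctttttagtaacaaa
The motif begins 244 bases before the start in GSTF3, 72 in GSTU11 and 193 in GSTF8, at 65 and 77 in GSTU1, and at 99 and 144 in GSTU9. A match describes letters in this window and not binding.

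The gene lists of the wider pathway were chosen with earlier results of these data known. Their counts are therefore descriptions and lend no support. Of the 5 ABCC vacuolar conjugate transporters listed, 5 were higher in topp4-1, with a median log2 change of 0.59, where 27.0% of all genes were higher. ABCC3 rose by 1.49 ± 0.17 (adjusted p = 4.21e-06) and ABCC1 by 0.83 ± 0.13 (7.72e-05). In pp1r3-2 and the double mutant 3 of 5 were higher (all genes 10.9% and 7.66%), and in topp-7m none was called. Of 14 TGA regulators and xenobiotic response genes, 10 were higher and 1 lower in topp4-1 (median 0.70), beside 27.0% and 26.5% of all genes. The counts were 4 and 2 in pp1r3-2 (all genes 10.9% and 8.33%), 4 and 2 in topp-7m (6.18% and 5.46%) and 4 and 1 in the double mutant (7.66% and 5.47%). SCL14, a TGA-interacting regulator of detoxification genes, rose by 1.25 ± 0.09 (adjusted p = 7.15e-08) and the transporter gene DTX3 by 3.83 ± 0.30 (1.27e-07) in topp4-1, whereas OPR1 changed by -1.79 ± 0.12 (1.58e-08). Against topp4-1, the double mutant had 1 of these 14 higher and 9 lower, beside 21.4% and 21.9% of all genes. Of 9 tested glutathione synthesis, reduction and degradation genes, 3 rose and 3 fell in topp4-1, near the shares over all genes given above, with GSH2, glutathione synthetase, at -0.74 ± 0.11 (adjusted p = 3.05e-05) and GGP1 at -1.48 ± 0.15 (1.35e-06). Of 8 genes of other transferase classes and dehydroascorbate reductases, 2 rose and 3 fell, also near those shares, among them GSTZ1 at 0.82 ± 0.11 (1.35e-05) and DHAR3 at -0.73 ± 0.10 (1.38e-05).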

How the data were processed

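The authors deposited a table of whole-number read counts per gene, without normalization, for 15 libraries of leaf RNA, and libraries were grouped by the genotype in their labels. The submitters' processing notes name HISAT2 2.0.5 as aligner. For the counting tool, strand setting and genome build, nothing is stated. Counts were tested with edgeR 4.0.16 (R 4.3.3) on all 15 libraries: TMM scaling, filterByExpr with a minimum count of 10 and total of 15, a robust quasi-likelihood fit with 10 residual degrees of freedom, and Benjamini-Hochberg adjustment over 20037 genes with a threshold of 0.05. CPM are per TMM-scaled library, and SE is the log2 fold change over the square root of F. The step was tested on simulated data with the same spread for every gene and changes planted only in genes above a minimum mean count. It therefore does not cover members of very low count, such as GSTF14 and GSTU25, or of wide spread, such as GSTU20. Alternatives were RLE scaling, other count filters, DESeq2 1.42.0, a replicate block, the compared genotypes alone, a 2-fold threshold and leaving out each library. Gene positions in the table matched TAIR10.1 for all 38 members, promoters and coding sequences were read from it, and coding identities came from MAFFT 7.526 alignments. Of the table's 33024 genes, 191 are unannotated loci. Genes named were the 6 members called in all mutants, the up to 6 highest and 6 lowest called changes against wild type among members whose groups were apart, up to 4 each way in the other comparisons, and further members singled out after their values were seen. The members and all gene lists were chosen with earlier results of these data known. Replicates of a genotype differed by more than sampling noise in every pair, and wild-type replicate 3 had 0.0813% chloroplast counts against at most 0.0208% in the others. The 3 genes with the prefix AT (ATGSTF4, ATGSTF5 and ATGSTU21) fall outside the symbol pattern and were not used. Deviations from the genotype means of same-numbered libraries correlated at 0.22 to 0.45 in all 3 pairs of pp1r3-2 and the double mutant. The numbers were read as pairs for that comparison alone. This pairing comes from the data, not from the labels, so no support is drawn from the blocked fit. Over all genotypes, libraries of unlike number correlated at up to 0.416.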

Additional observations from a re-analysis of the deposited data

Results flagged for a closer look

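The topp4-1 effect differed between the pp1r3-2 and the wild-type background for 22 members by the interaction term of edgeR's quasi-likelihood test (adjusted p under 0.05), against 38.3% of all genes. The values are log2 differences, the topp4-1 effect in pp1r3-2 minus that in wild type. The term contains the topp4-1 and the pp1r3-2 change against wild type, both with reversed sign, and is not independent of them. It was below 0 for GSTF2 (-1.02), GSTF3 (-4.26), GSTU1 (-1.25), GSTU7 (-1.28), GSTU9 (-1.29), GSTU10 (-1.51), GSTU11 (-2.67), GSTU16 (-0.76), GSTU24 (-1.0) and GSTU27 (-0.54). It was above 0 for GSTF8 (0.68), GSTF9 (0.70), GSTF10 (1.56), GSTU4 (0.48), GSTU5 (1.21), GSTU6 (3.06), GSTU13 (2.41), GSTU17 (3.09), GSTU18 (0.45), GSTU20 (2.42), GSTU23 (1.93) and GSTU26 (2.58). Calls for GSTU4, GSTU7, GSTU18, GSTU20 and GSTU23 were lost without single libraries: adjusted p reached 0.121 for GSTU4 (without double-mutant replicate 1), 0.121 for GSTU7 (without pp1r3-2 replicate 2), 0.0664 for GSTU18 (without pp1r3-2 replicate 2), 0.0855 for GSTU20 (without wild-type replicate 3) and 0.117 for GSTU23 (without double-mutant replicate 1). The GSTU20 value was 3.25 without topp4-1 replicate 3. A looser count filter also ended the calls of GSTU7 (adjusted p = 0.0512), GSTU20 (0.0568) and GSTU23 (0.0577), and the replicate block those of GSTU7 (0.0611) and GSTU20 (0.064).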

How the results depend on the processing

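None of the 116 called member values over all comparisons changed direction under the alternatives tried; of 140 uncalled values, 52 did in at least 1, all with a log2 size of at most 0.505. Of the called values, 88 stayed called in every setting and 28 lost the call in at least 1; of 62 values of named members, 50 never lost it. With a 2-fold threshold, the members called numbered 5 rather than 15 in pp1r3-2, 4 rather than 10 in the double mutant and 11 rather than 19 between topp-7m and topp4-1, where 3.89%, 2.72% and 12.0% of all genes had such calls. DESeq2 called 10 rather than 6 in topp-7m, where over all genes it called 1571 higher and 1400 lower rather than 1239 and 1095. Between the double mutant and pp1r3-2 it called 1 rather than 0 (9 genes higher and 50 lower over all genes, rather than 0 and 7). With only the compared genotypes fitted, the double mutant had 6 rather than 10, and over all genes 813 higher and 529 lower rather than 1534 and 1097; phi minus tau medians could not be given for pp1r3-2, topp-7m and the double mutant in that fit, since a member was filtered out.

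Leaving out each library in turn gave 11 to 15 members called for pp1r3-2, 20 to 23 for topp4-1, 6 to 7 for topp-7m and 8 to 11 for the double mutant, each against wild type. It gave 18 to 20 for the double mutant against topp4-1 and 0 in each case against pp1r3-2. For topp-7m against topp4-1 it gave 15 to 18, and for the interaction 18 to 22. Across all genes, topp4-1 had 4853 higher and 5338 lower without wild-type replicate 1 (20 members), rather than 5411 and 5315. The double mutant against topp4-1 had 3647 and 3657 without topp4-1 replicate 2 (18 members), rather than 4284 and 4392. Between topp-7m and topp4-1 there were 3379 and 3051 without topp-7m replicate 2 (15 members), rather than 3866 and 3705. The interaction had 3480 and 3431 without wild-type replicate 3 (18 members), rather than 3816 and 3863. The phi minus tau median ranged from 0.17 to 0.45 for pp1r3-2, -0.69 to -0.46 for topp4-1, -0.27 to 0.020 for topp-7m and 0.18 to 0.36 for the double. Over all genes, counts against wild type fell by more than 1.5 times without wild-type replicate 2 (pp1r3-2 1411 higher and 1100 lower, topp-7m 718 and 737, double mutant 864 and 732), without wild-type replicate 3 (1318 and 1070, 640 and 709, 754 and 625) and without replicate 3 of the mutant itself (1354 and 1118, 644 and 753, 785 and 653). The double mutant against pp1r3-2 had 2 lower without pp1r3-2 replicate 1, 1 higher and 11 lower without double-mutant replicate 3, and 3 lower with the compared genotypes alone.

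With the replicate number as a block, 14 members were called in pp1r3-2, 25 in topp4-1, 7 in topp-7m, 10 in the double mutant, 20 against topp4-1, 0 against pp1r3-2, 19 between topp-7m and topp4-1 and 20 in the interaction. Over all 20037 genes, the block gave 2262 higher and 1776 lower in pp1r3-2, 5510 and 5392 in topp4-1, and 1269 and 1169 in topp-7m. The double mutant had 1589 and 1253, or 4299 and 4528 against topp4-1 and 0 and 8 against pp1r3-2. Between topp-7m and topp4-1 there were 3913 and 3840, and in the interaction 3904 and 3969. The phi minus tau medians with the block were 0.34, -0.65, -0.15 and 0.23. The block ended the calls of GSTU19 in pp1r3-2 (adjusted p = 0.0525), GSTU17 between topp-7m and topp4-1 (0.0751), and GSTU7 (0.0611) and GSTU20 (0.064) in the interaction. With the block and the compared genotypes alone, 1 member was called between the double mutant and pp1r3-2, the only pair of genotypes whose 3 same-numbered pairs all correlated over 0.1. In the 9 other pairs of genotypes at most 2 pairs did, and 8 of 15 libraries correlated best with their own number, so the numbers were not read as pairs there.

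Depth limits GSTF14, GSTU12, GSTU23 and GSTU25 most, which have few counts per library.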
